A study of Mus musculus with 8 samples.

Results

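Amino acid transporters that are known targets of the integrated stress response were examined in single nuclei from the hearts of Tafazzin-knockout (Taz-KO) mice, a model of Barth syndrome. The members were 10 genes named in advance by symbol, of 32272 nuclear genes in the files, and they were chosen by their measured levels in WT and Taz-KO nuclei of these hearts, as well as by their known role. They were Slc7a11, Slc7a5, Slc3a2, Slc7a1, Slc7a3, Slc1a4, Slc1a5, Slc6a9, Slc38a2 and Slc38a3, and each was found in the files as 1 gene. The CPM values that chose them, those per mouse in cardiomyocytes, fibroblasts, endothelial cells and macrophages, are therefore given as a description without p-values. In cardiomyocytes 7 of the 10 transporters had higher levels in every Taz-KO mouse than in every WT mouse, whereas Slc38a2, Slc38a3 and Slc1a5 overlapped between genotypes.

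The study compared 4 WT with 4 Taz-KO males, each giving 1 library of the whole heart, all at 9 weeks of age and without any treatment named in the labels. Tafazzin is the acyltransferase that remodels cardiolipin, the phospholipid of the inner mitochondrial membrane. The strain and the design of the deletion are not given in the sources used here. Libraries were of the 3′ kind and made from nuclei of cryopreserved tissue. Mitochondrial transcripts still took from 1.57% (Taz-KO replicate 5301) to 23.7% (WT replicate 4909) of a library's counts. They were left out of the values, which are thus not of nuclear RNA alone.

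The integrated stress response is a pathway in which kinases that sense amino acid shortage, mitochondrial dysfunction, unfolded proteins or other stress phosphorylate the translation factor eIF2α. General translation then falls while that of the transcription factor ATF4 rises. ATF4, often with a C/EBP partner, switches on genes for amino acid uptake, amino acid synthesis and tRNA charging. The transporters differ in cargo. Slc7a11 exchanges cystine for glutamate and so supplies cysteine for glutathione, Slc7a5 exchanges large neutral amino acids such as leucine, and Slc3a2 encodes the glycoprotein that both need to reach the cell surface. Slc7a1 and Slc7a3 carry arginine and lysine. Slc1a4 carries alanine, serine and cysteine, Slc1a5 exchanges glutamine and other neutral amino acids, Slc6a9 takes up glycine, and Slc38a2 and Slc38a3 take up small neutral amino acids and glutamine together with sodium.

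The sequence to which ATF4 and C/EBP proteins bind together is known to contain the core TGATGNAA. Promoters from RefSeq (GRCm38, the build of the deposited counts), 250 bases before to 50 bases after each gene start, were searched for this core on both strands. The table held 6 of the members, and 2 of these 6, Slc7a11 and Slc1a4, had a match, against 1219 of 27025 genes (4.51%) in the whole table. Slc7a1, Slc3a2, Slc6a9 and Slc38a2 had none in the windows searched. Slc7a5, Slc7a3, Slc38a3 and Slc1a5 were not searched. The 3 matches are printed because they show the same 8 bases, in capitals, at both genes, with the neighbouring bases in lower case:

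Slc7a11, minus strand of chr3:50443661-50443690: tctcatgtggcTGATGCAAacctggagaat
Slc7a11, plus strand of chr3:50443642-50443671: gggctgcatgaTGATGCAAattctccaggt
Slc1a4, plus strand of chr11:20332699-20332728: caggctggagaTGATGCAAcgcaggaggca

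Both genes lie on the minus strand. The first match at Slc7a11 reads in the direction of the gene, with its outermost base 66 bases before the gene start, and the other reads against it, with its outermost base 47 bases before the start. The match at Slc1a4 also reads against the gene and its outermost base lies 4 bases before the start, so that it reaches across the start. In the same search 6 of 19 other stress response genes (31.6%) had a match, namely Asns, Atf3, Chac1, Nupr1, Trib3 and Vldlr, compared with 1 of 30 other plasma membrane amino acid transporters (3.33%), Slc7a7. A match is a run of letters and not a measured binding site.

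The files held 169193 barcodes. After filters and doublet removal 151264 nuclei were left, of which 115097 lay in clusters named by marker genes. The authors kept far fewer nuclei of these hearts, after their own correction for ambient RNA and doublet removal. How far the barcodes kept here as nuclei held free RNA instead was not tested. The libraries had 20025456 to 348080773 UMIs (unique molecular identifiers, each standing for 1 captured transcript). Taz-KO replicates 4685 and 5301 stood apart, with 3492 and 5571 barcodes against at least 21190 in each of the 6 other libraries. Between 2 and 294 barcodes were shared by a pair of libraries, at most 1.04% of the smaller library. The UMIs of a cell type were added up within each mouse, over 29658 cardiomyocytes (217 to 7384 per mouse), 38131 fibroblasts (357 to 7637), 21017 endothelial cells (451 to 5118) and 14490 macrophages (167 to 4563). Levels are in CPM, the UMIs of a gene in that sum divided by all its UMIs and scaled to 1000000, and the mouse is the replicate. The marker pairs of the rule were among the genes that named the clusters. Their levels thus describe the named types and are no check of the names. Ryr2 was at 8906 CPM or more in every cardiomyocyte sum and at 1889 CPM or less in the sums of the 3 other types, and Pdgfra was at 437 CPM or more in fibroblasts and at 249 CPM or less elsewhere among them. Likewise Flt1 was at 649.9 CPM or more in endothelial cells against 283 CPM or less, and F13a1 at 1887 CPM or more in macrophages against 259 CPM or less.

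Taz itself was counted in cardiomyocytes at 52.7, 49.2, 54.2 and 48.4 CPM in WT replicates 4686, 4909, 5355 and 5356, and at 43.0, 37.5, 27.9 and 31.2 CPM in Taz-KO replicates 4685, 4910, 5300 and 5301. The genotypes did not overlap, and the log2 fold change of Taz was -0.66 ± 0.17 (SE), with an adjusted p of 0.0261 (edgeR quasi-likelihood test). Since it is not given here which part of the gene is deleted, reads outside that part may remain, and Dnase1l1 overlaps Taz on the opposite strand.

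Slc7a11 (chr3:49892526-50443614, minus strand), the cystine/glutamate exchanger, had levels of 2.43, 3.97, 1.62 and 2.08 CPM in the cardiomyocytes of WT replicates 4686, 4909, 5355 and 5356. In Taz-KO replicates 4685, 4910, 5300 and 5301 it stood at 67.9, 41.8, 63.4 and 54.0 CPM. The lowest Taz-KO mouse was thus far above the highest WT mouse. The means were 2.52 ± 1.02 CPM in WT and 56.8 ± 11.6 CPM in Taz-KO (SD, n = 4 each), a log2 fold change of 4.36 ± 0.27 (SE, edgeR). Of the 3 promoter matches printed above, 2 lie at this gene. The predicted gene Gm37854 overlaps it on the opposite strand.

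Slc7a5 (chr8:121881150-121907694), the exchanger of large neutral amino acids, was counted at 1.42, 1.32, 0.93 and 1.12 CPM in WT cardiomyocytes, with mice in the same order, and at 52.4, 26.5, 49.1 and 49.8 CPM in Taz-KO cardiomyocytes. Taz-KO replicate 4910 was the lowest of its group and still above all WT mice. The log2 fold change was 5.08 ± 0.27, from a mean of 1.20 ± 0.219 CPM to 44.5 ± 12.1 CPM (SD, n = 4 each). Slc3a2 (chr19:8706882-8723369), the partner of both Slc7a11 and Slc7a5 at the cell surface, went from 19.9, 20.1, 21.2 and 11.0 CPM in WT to 81.3, 46.8, 82.2 and 53.0 CPM in Taz-KO. Its log2 fold change of 1.75 ± 0.20 was the smallest of the 7 transporters without overlap.

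Among the carriers of arginine and lysine, Slc7a1 (chr5:148327410-148399904) was counted at 31.6, 36.0, 34.4 and 30.0 CPM in WT cardiomyocytes and at 208, 99.8, 169 and 202 CPM in Taz-KO cardiomyocytes, with a log2 fold change of 2.25 ± 0.24. Slc7a3 (chrX:101079210-101086020) was near zero in WT, with 5, 8, 8 and 3 UMIs in whole sums of at least 38904690 UMIs. Its Taz-KO levels were 4.80, 4.90, 10.1 and 5.63 CPM against 0.0986, 0.116, 0.206 and 0.0702 CPM in WT. The log2 fold change of 5.58 ± 0.37 was the highest of the members in this fit and rests on these few WT UMIs. Both carriers were thus higher in all 4 Taz-KO mice, Slc7a1 from a level that was already present in WT.

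Slc1a4 (chr11:20302180-20332713), the carrier of alanine, serine and cysteine, stood at 1.85, 2.35, 2.13 and 1.29 CPM in WT and at 54.5, 24.1, 42.1 and 44.6 CPM in Taz-KO cardiomyocytes. The log2 fold change was 4.32 ± 0.27. Slc6a9 (chr4:117834506-117875198), the glycine transporter, was at 1.72, 1.94, 1.41 and 0.54 CPM in WT and at 23.8, 10.9, 13.8 and 12.0 CPM in Taz-KO. Its log2 fold change was 3.30 ± 0.36. Gm17114, Ccdc24 and B4galt2 overlap Slc6a9 on the opposite strand, and whether the counting used strand is not given in the sources used here.

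The 3 remaining members overlapped between genotypes in cardiomyocytes. Slc38a2 (chr15:96687392-96699730) was at 375, 283, 508 and 332 CPM in WT and at 727, 360, 631 and 394 CPM in Taz-KO, with a log2 fold change of 0.35 ± 0.24. Slc38a3 (chr9:107650634-107669530) was at 88.2, 53.6, 65.2 and 57.9 CPM in WT and at 51.8, 46.1, 95.7 and 106 CPM in Taz-KO, with a log2 fold change of 0.08 ± 0.30. Taz-KO mice lay on both sides of the WT mice for this gene. Slc1a5 (chr7:16781340-16798274), the glutamine exchanger, was at 23.5, 26.6, 14.5 and 8.35 CPM in WT and at 21.7, 16.2, 19.8 and 8.17 CPM in Taz-KO, with a log2 fold change of -0.27 ± 0.32.

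**Figure D1:**
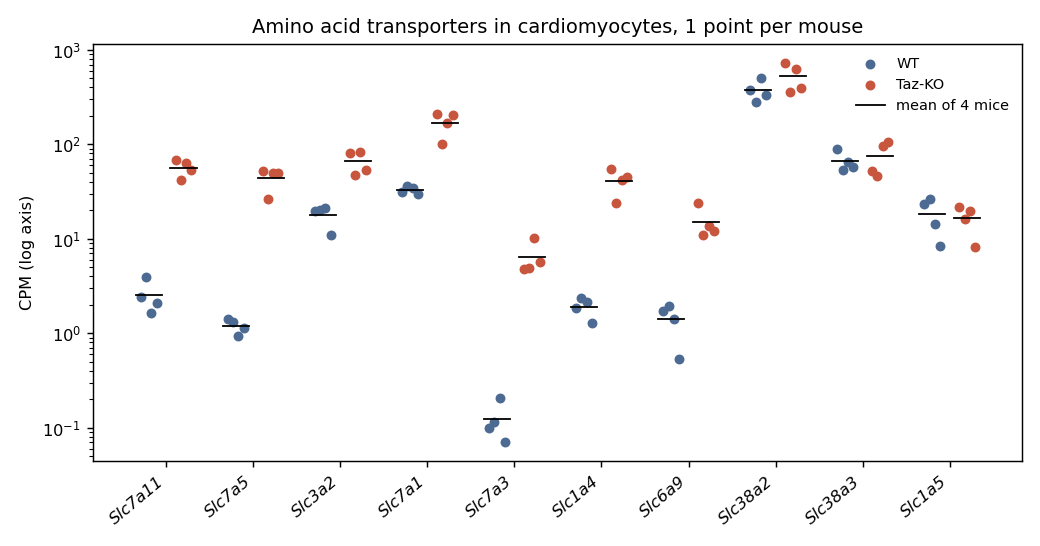
Levels of the 10 transporters in cardiomyocytes, in CPM on a log axis. Each point is 1 mouse (4 WT, blue, and 4 Taz-KO, red) and the black line is the mean of the group. For the 7 transporters on the left every Taz-KO point lies above every WT point, and for Slc38a2, Slc38a3 and Slc1a5 the groups overlap.

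In the fit across all genes, 7 of the 10 members passed an adjusted p of 0.05 in the direction of Taz-KO in cardiomyocytes, and 8.53% of all 18541 genes tested did so. The same 7 had no overlap between genotypes, which held for 15.1% of all genes. The median log2 fold change of the members was 2.78, and that of all genes was -0.01. Nothing is read from these counts, since the members were chosen with this contrast known. The count was also 7 in each of 16 alternatives in cardiomyocytes, including the fit without Taz-KO replicates 4685 and 5301, of which likewise nothing is read. Genes called higher in these alternatives ran from 1007 of 18829 (without WT replicate 4909) to 2042 of 18541 (with library totals only). One of these alternatives subtracted from every sum a share of 0.2 with the profile of the poorest 10% of the library's barcodes by UMIs. In 6 of the 8 libraries every barcode passed the filters, with at least 2165 UMIs, so that there this profile comes from barcodes kept as nuclei. How far these barcodes hold nuclei or free RNA was not tested, and the subtraction is no measure of free RNA. It moved the log2 fold change of Slc7a11 to 6.19 ± 1.29, of Slc7a5 to 5.98, of Slc6a9 to 5.37 and of Slc1a4 to 5.34, so that Slc7a3, at 5.52, was then not the highest. No threshold defined the members, and the values nearest to the boundary between the 7 and the other 3 were those of Slc3a2 (1.75) and Slc38a2 (0.35) on the log2 scale.

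The number of nuclei with a transcript was compared at matched depth, with each nucleus reduced to 1000 UMIs. This left out 61 of 13424 Taz-KO and 0 of 16234 WT cardiomyocyte nuclei. Slc7a1 was seen in 13.6% ± 3.27 of Taz-KO nuclei (SD over 4 mice) and in 3.30% ± 0.200 of WT nuclei. Slc7a11 was seen in 4.65% ± 0.789 of Taz-KO and in 0.250% ± 0.0742 of WT nuclei, and Slc7a5 in 4.17% ± 1.35 and 0.127% ± 0.0239. Without this step the shares in Taz-KO were 61.6%, 30.4% and 33.8%, and in WT 28.4%, 2.53% and 1.45%, in the same order. The WT shares of Slc7a11 and Slc7a5 in cardiomyocytes lay below those in WT endothelial cells, at 0.410% and 0.256%, and the part of free RNA in them was not tested. The median depth per nucleus before this step was 9052 to 12417 UMIs in WT cardiomyocytes and 3151 to 5399 UMIs in WT endothelial cells. Slc38a2 was seen in 37.3% ± 9.93 of Taz-KO and 28.7% ± 5.90 of WT cardiomyocyte nuclei.

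**Figure D2:**
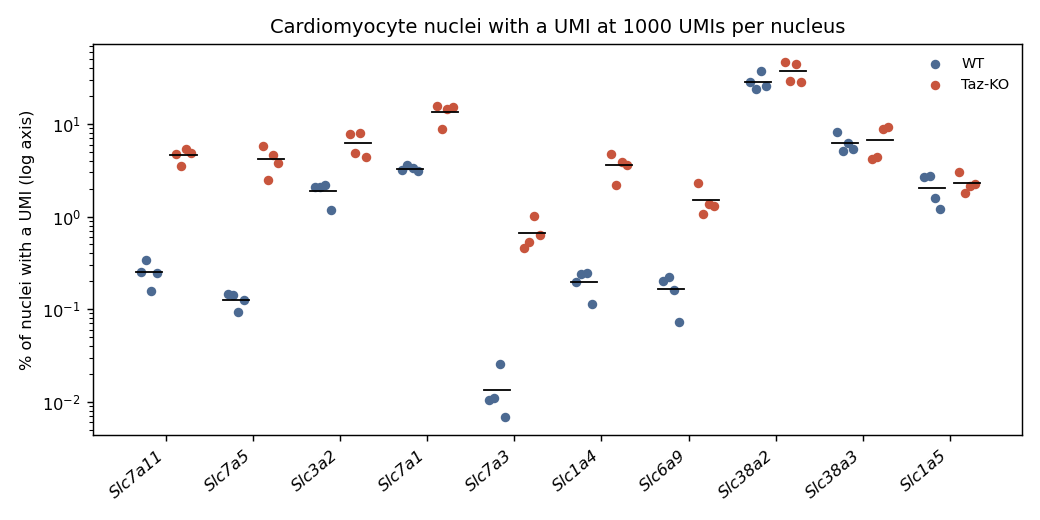
Share of cardiomyocyte nuclei with at least 1 UMI of each transporter after every nucleus was reduced to 1000 UMIs, in percent on a log axis. Each point is 1 mouse and the black line is the mean of 4 mice. Slc38a2 was the most widely seen in both genotypes, at 28.7% in WT and 37.3% in Taz-KO, and the 7 transporters on the left were seen in more nuclei of every Taz-KO mouse than of any WT mouse.

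The cardiomyocytes fell into 6 clusters, and the ratio of Taz-KO to WT levels varied among them. Clusters are known by number, with the genes that lead them, and only mice with at least 20 nuclei in a cluster are given. In the largest, cluster 3 (Mhrt, Rbm20), Slc7a11 had a mean of 1.43 CPM in WT and 40.1 CPM in Taz-KO, with Taz-KO mice between 24.0 and 59.4 CPM. In cluster 6, also led by Mhrt, the means were 1.78 and 41.2 CPM. In cluster 9 (Tenm4, Ptprt), which held 1294 WT and 3305 Taz-KO nuclei, they were 1.57 and 81.1 CPM, and the lowest Taz-KO mouse was at 69.0 CPM. In cluster 18, led by Fgf12, Kcnj3, Mybphl and Tbx5, of which Mybphl and Kcnj3 are known from atrial cardiomyocytes, the means were 8.60 and 21.9 CPM, and the groups overlapped, with WT up to 17.1 CPM and Taz-KO down to 4.66 CPM. This lowest value is 1 UMI in the 56 nuclei of Taz-KO replicate 4685, and the other Taz-KO mice, at 21.2, 26.2 and 35.5 CPM, lay above all WT mice. The smallest 2 clusters, 21 and 22, were both led by Mhrt and had at least 20 nuclei in only 2 Taz-KO mice. Cluster 21 had the highest WT level of Slc7a11 among the 6, with a mean of 21.2 CPM (10.1 to 34.5) against 61.6 CPM (48.4 to 74.7) in Taz-KO, and cluster 22 had 2.03 CPM and 42.0 CPM.

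Cluster 21 thus supplied a large part of the Slc7a11 of WT cardiomyocytes, namely 43 of its 123 UMIs, 149 of 274, 12 of 63 and 10 of 89 in WT replicates 4686, 4909, 5355 and 5356. Without this cluster, a setting chosen after these values were seen, the mean level of Slc7a11 was 1.72 CPM in WT and 55.9 CPM in Taz-KO, and its log2 fold change was 4.88 ± 0.22 in place of 4.36. The 10 genes of the fibroblast marker panel took 0.643% of the UMIs of cluster 21 in WT and 0.542% in Taz-KO, compared with 0.416% and 0.288% in cluster 3, and 0.724% and 0.787% in cluster 18. Cluster 6 had a like panel share, 0.620% in WT and 0.601% in Taz-KO, beside the WT level of Slc7a11 of 1.78 CPM given above. Slc1a5, which like Slc7a11 was higher in WT fibroblasts than in WT cardiomyocytes, was also high in cluster 21, with 64.7 CPM in both genotypes against 12.3 CPM in WT and 9.07 CPM in Taz-KO in cluster 3. Slc7a1 in Taz-KO nuclei was highest in cluster 9 too, with 212 CPM against 142 CPM in cluster 3, the next in order, and 116 CPM in cluster 18, the lowest. Slc38a3 was lower in cluster 18 than in cluster 3 in both genotypes, at 28.3 against 68.7 CPM in WT and at 40.6 against 74.2 CPM in Taz-KO. Since the clusters were built on expression in these nuclei, the differences between them were not tested.

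In fibroblasts Slc7a11 did not follow the pattern of cardiomyocytes. It was counted at 49.3, 53.9, 37.2 and 97.9 CPM in WT replicates 4686, 4909, 5355 and 5356 and at 45.5, 49.3, 39.9 and 58.9 CPM in Taz-KO replicates 4685, 4910, 5300 and 5301. The genotypes overlapped, with a log2 fold change of -0.37 ± 0.28. The Taz-KO level in cardiomyocytes thus reached the range that fibroblasts had in both genotypes. Slc7a5 was at 3.01, 2.91, 2.61 and 2.71 CPM in WT fibroblasts and at 21.6, 7.54, 17.7 and 5.02 CPM in Taz-KO fibroblasts, higher in all 4 Taz-KO mice than in any WT mouse, as 4.37% of all genes were, with a log2 fold change of 2.08 ± 0.38. Slc1a4 was at 7.46 to 8.35 CPM in WT and at 12.8 to 23.0 CPM in Taz-KO. Slc7a3 was at 0.278 to 1.03 CPM in WT and 0.913 to 7.20 CPM in Taz-KO. Its lowest Taz-KO mouse lay below its highest WT mouse.

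In endothelial cells Slc7a11 stood at 3.15, 4.27, 2.10 and 5.98 CPM in WT and at 14.7, 12.0, 14.0 and 7.24 CPM in Taz-KO, with a log2 fold change of 1.59 ± 0.33. All Taz-KO mice lay above all WT mice, as for 3.27% of all genes. Typed by the marker pair alone, its log2 fold change was 0.43. Slc7a5 was at 2.62, 2.27, 2.10 and 2.95 CPM in WT and at 24.0, 8.65, 20.3 and 11.4 CPM in Taz-KO, and Slc1a4 had a mean of 3.50 ± 0.890 CPM in WT and 11.7 ± 4.60 CPM in Taz-KO (SD, n = 4 each). Slc7a3 was near zero in WT, with a mean of 0.341 CPM, and had a mean of 4.97 CPM in Taz-KO, without overlap. Its highest WT mouse was at 0.622 CPM and its lowest Taz-KO mouse at 1.03 CPM. Taz-KO sums went down to 967367 UMIs, so this gap rests on few UMIs.

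Macrophages resembled fibroblasts for Slc7a11, at 10.2, 19.5, 13.5 and 20.4 CPM in WT and at 8.89, 14.6, 18.2 and 9.17 CPM in Taz-KO, with a log2 fold change of -0.26 ± 0.29. Slc7a5 was at 1.99, 2.56, 1.49 and 1.49 CPM in WT and at 43.0, 7.78, 17.1 and 4.59 CPM in Taz-KO, with a log2 fold change of 2.94 ± 0.57. It was higher in all 4 Taz-KO mice, as were 2.37% of all genes. The highest of these Taz-KO values was that of Taz-KO replicate 4685. Slc7a3 was near zero in WT, at 0.125 to 0.427 CPM, and at 1.83 to 7.47 CPM in Taz-KO. Slc1a4 had a mean of 3.27 ± 0.703 CPM in WT and 13.9 ± 8.05 CPM in Taz-KO, without overlap and with a log2 fold change of 1.89 ± 0.34. Slc1a5 had a mean of 84.6 ± 29.0 CPM in WT and 58.9 ± 18.5 CPM in Taz-KO, with overlap.

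In fibroblasts, endothelial cells and macrophages 1, 2 and 1 members passed an adjusted p of 0.05 with edgeR, all higher in Taz-KO, beside 0.326% of 17766, 0.328% of 16169 and 0.285% of 15414 genes called higher. DESeq2 called 3, 4 and 3 members, beside 252 of 17766, 180 of 16169 and 153 of 15414 genes called higher. When only library totals were used, edgeR called 0, 3 and 1 members, beside 59, 58 and 38 genes called higher. With a mouse left out the counts ran from 0 to 3, 0 to 4 and 0 to 4, each highest without Taz-KO replicate 5301. In the fits without that mouse 141 of 18344, 135 of 16427 and 217 of 15853 genes were called higher. The levels in these types took part in the choice of members, so nothing is read from these counts either.

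**Figure D3:**
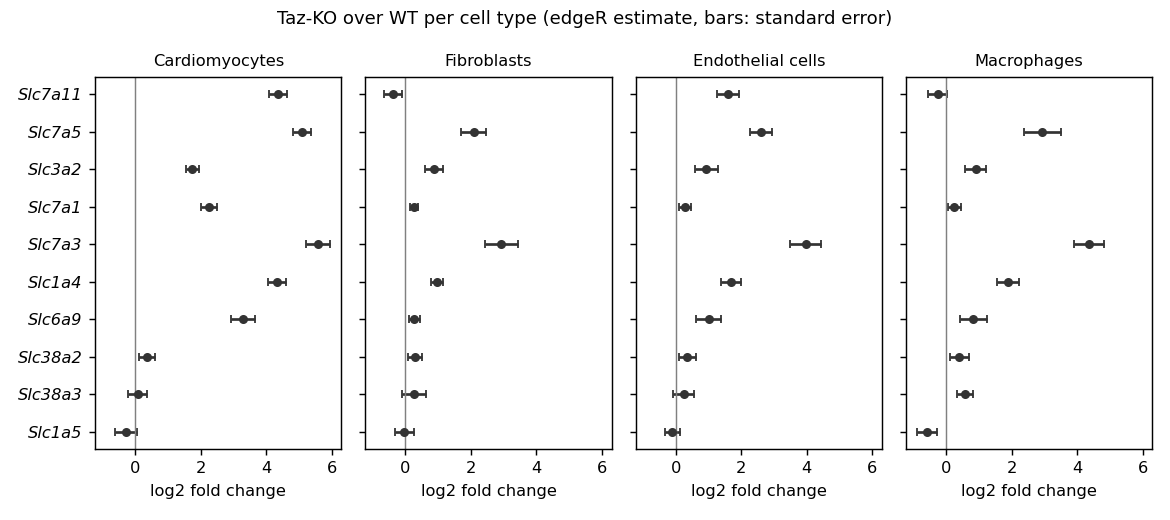
Log2 fold change of Taz-KO over WT for the 10 transporters in 4 cell types, from edgeR, with bars for the standard error (4 mice per genotype). Slc7a11 lies at 4.36 in cardiomyocytes, at 1.59 in endothelial cells and below 0 in fibroblasts and macrophages, while Slc7a5 and Slc7a3 lie above 2 in all 4 types.

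Transcripts of cardiomyocytes were also present in the sums of the other cell types, and they moved with the libraries. The 10 genes of the cardiomyocyte marker panel were all counted in every one of these sums. They took 4.21% to 6.88% of the UMIs of cardiomyocytes, 0.794% to 2.11% of those of WT fibroblasts and 0.366% to 1.65% of those of Taz-KO fibroblasts, and their share was lowest in Taz-KO replicate 5301 in fibroblasts, endothelial cells, macrophages, pericytes, lymphatic endothelial cells and mesothelial cells. In adipocytes it was lowest in WT replicate 5356, at 0.950%. In the poorest 10% of each library's barcodes by UMIs, which in 6 of the 8 libraries all passed the filters, Slc7a5 had a mean of 3.20 CPM in WT and 23.6 CPM in Taz-KO. Slc7a3 had 0.168 and 7.77 CPM there, and Slc7a11 10.0 and 25.2 CPM. With the share of 0.2 of their profile subtracted, the count of members past the adjusted p was 0 in each of fibroblasts, endothelial cells and macrophages, and the log2 fold changes of Slc7a3 and Slc7a5 stayed positive. For Slc7a3 the fibroblast value became 2.25 ± 0.54 (from 2.92), the endothelial value 3.58 ± 0.50 (from 3.97) and the macrophage value 3.86 ± 0.47 (from 4.36). Those of Slc7a5, in the same order of types, became 1.82 ± 0.44, 2.52 ± 0.36 and 3.03 ± 0.69, from 2.08, 2.59 and 2.94. The part of free cardiomyocyte RNA in the levels outside cardiomyocytes was not tested.

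Over 8 cell types the transporters had distinct orders of level. In WT, Slc7a11 was highest in fibroblasts (59.6 ± 26.5 CPM), which did not overlap with the next, macrophages (15.9 ± 4.87 CPM), and it was lowest in cardiomyocytes. From macrophages down to cardiomyocytes each neighbour in the order overlapped with the next. In Taz-KO, cardiomyocytes (56.8 ± 11.6 CPM) and fibroblasts (48.4 ± 7.99 CPM) overlapped at the top and both lay above pericytes (19.5 ± 3.93 CPM), the next in order. Slc7a1 changed place likewise, being next to lowest in WT cardiomyocytes and highest in Taz-KO cardiomyocytes, where its 99.8 to 208 CPM lay above the 53.4 to 82.6 CPM of mesothelial cells, the next in order.

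Slc1a5 had an order that was alike at both ends in both genotypes. It was highest in adipocytes, at 704 ± 356 CPM in WT (n = 4) and 943 ± 133 CPM in Taz-KO (n = 3, as Taz-KO replicate 4685 had only 9 adipocytes), followed by fibroblasts with 224 ± 81.8 and 233 ± 58.3 CPM, and lowest in cardiomyocytes. Adipocytes and fibroblasts overlapped in WT and not in Taz-KO. Slc38a3 was highest in cardiomyocytes, at 66.2 ± 15.4 CPM in WT and 75.0 ± 30.4 CPM in Taz-KO, and did not overlap there with the next type, lymphatic endothelial cells in WT (13.4 ± 2.91 CPM) and adipocytes in Taz-KO (17.3 ± 8.97 CPM). Slc1a4 was highest in WT in pericytes, at 16.7 ± 3.53 CPM, without overlap with mesothelial cells (8.43 ± 1.03 CPM). Slc38a2 was highest in cardiomyocytes in both genotypes and overlapped with lymphatic endothelial cells in each.

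**Figure D4:**
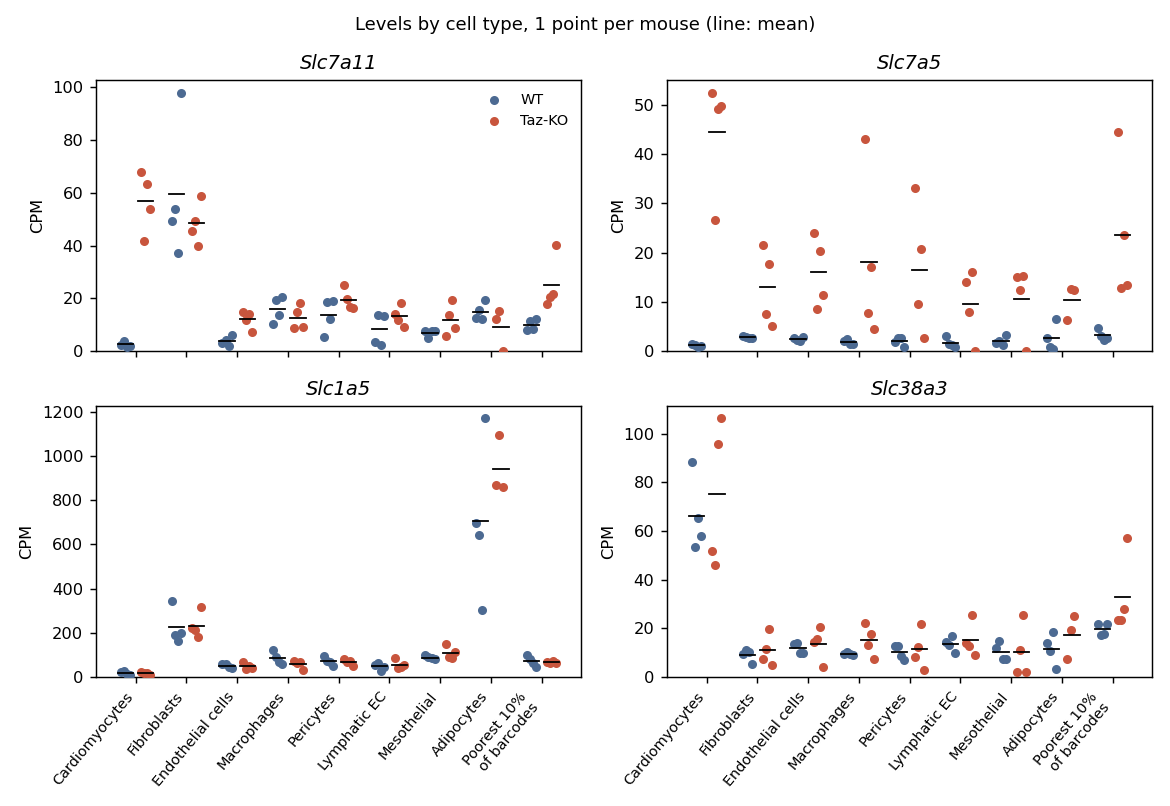
Levels in CPM of Slc7a11, Slc7a5, Slc1a5 and Slc38a3 in 8 cell types and in the poorest 10% of each library's barcodes by UMIs. Each point is 1 mouse (WT blue, Taz-KO red), the black line is the mean, and a mouse with fewer than 10 nuclei of a type is left out. Slc7a11 in Taz-KO cardiomyocytes (56.8 CPM) reached the level of fibroblasts, Slc1a5 was highest in adipocytes (704 and 943 CPM), and Slc38a3 in cardiomyocytes (66.2 and 75.0 CPM).

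The choice of members did not use pericytes, lymphatic endothelial cells, mesothelial cells and adipocytes, and there the members were tested (edgeR, adjusted over all genes of a type). None of 8, 7, 8 and 8 members tested passed an adjusted p of 0.05 in these types, where 0.143%, 0.0693%, 0.0729% and 2.63% of all genes were called in either direction. DESeq2 also called 0. At an unadjusted p of 0.05 there were 1, 2, 2 and 2. The nearest was Slc1a4 in adipocytes, at 4.99 ± 3.33 CPM in WT (n = 4) and 13.2 ± 0.719 CPM in Taz-KO (n = 3), with a log2 fold change of 1.79 ± 0.45 (adjusted p = 0.0579, edgeR). Slc3a2 was positive in each, with log2 fold changes of 0.96 ± 0.37 in pericytes (adjusted p = 0.761), 0.78 ± 0.27 in lymphatic endothelial cells (adjusted p = 0.660), 0.58 ± 0.24 in mesothelial cells (adjusted p = 0.569) and 0.74 ± 0.23 in adipocytes (adjusted p = 0.101). Slc7a5 and Slc7a3 did not pass the filter on low counts in these 4 types, nor did Slc1a4 in lymphatic endothelial cells, and they are not among the members tested. Slc7a5 had means of 2.04 CPM in WT and 16.6 CPM in Taz-KO pericytes, 1.65 and 9.49 CPM in lymphatic endothelial cells, 2.12 and 10.6 CPM in mesothelial cells, and 2.66 and 10.5 CPM in adipocytes. Its groups did not overlap in pericytes, where WT reached 2.74 CPM and the lowest Taz-KO mouse was at 2.75 CPM, and overlapped in the other 3 types. Slc7a3 did not overlap in mesothelial cells (1.01 CPM in WT and 3.81 CPM in Taz-KO) or adipocytes (1.16 and 5.05 CPM). The highest WT and lowest Taz-KO mice were at 1.76 and 1.87 CPM in mesothelial cells. In adipocytes they were at 3.24 and 4.16 CPM, in Taz-KO sums as low as 240538 UMIs. The share of all genes without overlap in these types is not given here, so nothing is read from these gaps.

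The calls in these 4 types depended on the filter and on single mice. Without the filter Slc7a5 passed in each of them, Slc7a3 in pericytes and Slc1a4 in adipocytes, beside 0.455% of all genes called in pericytes, 0.389% in lymphatic endothelial cells, 0.494% in mesothelial cells and 3.20% in adipocytes. Without Taz-KO replicate 5301, Slc7a5 and Slc7a3 passed in pericytes (0.557% of all genes called), Slc7a5 in mesothelial cells (0.288%) and Slc1a4 in adipocytes (12.0%). The same 4 tests passed without Taz-KO replicates 4685 and 5301 together, beside 0.460%, 0.974% and 12.0%. In adipocytes both are the same fit, as Taz-KO replicate 4685 had no sum there, and it holds only 2 Taz-KO mice, fewer than the 3 otherwise required. Without WT replicate 5356, Slc7a5 and Slc7a3 passed in pericytes (0.310%) and Slc7a5 and Slc1a4 in adipocytes (5.37%). With these mice left out, Slc7a5 and Slc7a3 entered the tests after failing the filter in the main fits. That filter can be met through the Taz-KO mice alone, where their levels were higher, so nothing is read from their calls. The sums of Taz-KO pericytes went down to 120509 UMIs, and Taz-KO replicate 4685 had 23 pericytes. The tests rest on 6062 pericytes, 2181 lymphatic endothelial cells, 2747 mesothelial cells and 811 adipocytes over all mice.

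Most other amino acid transporters did not pass the test in cardiomyocytes. Of 41 further transporters of the plasma membrane, listed by family, 24 were abundant enough to be tested, and 3 rose, 1 fell and 20 did not pass, beside 8.53% of all genes called higher and 6.62% called lower. The median log2 fold change of the 24 was 0.20. With the profile of the poorest barcodes subtracted, 22 of the list were tested, and 1 rose and 2 fell, beside 1028 higher and 898 lower of 16741 genes. Slc38a1, which like Slc38a2 carries small neutral amino acids with sodium, rose from 16.6 CPM (12.6 to 21.3) in WT to 73.0 CPM (60.4 to 94.6) in Taz-KO, with a log2 fold change of 2.01 ± 0.25 (adjusted p = 3.57e-04, edgeR). Slc7a15, of the same family as Slc7a11, rose from 0.789 to 3.77 CPM, a log2 fold change of 2.13 ± 0.30 (adjusted p = 8.55e-04). Slc36a2, a proton-coupled carrier of glycine, alanine and proline, went the other way, from 38.1 CPM (29.8 to 46.7) in WT to 7.18 CPM (6.07 to 8.71) in Taz-KO, with a log2 fold change of -2.51 ± 0.21 (adjusted p = 2.23e-05). It was also among the genes that led the adipocyte cluster. The 6 genes of the adipocyte marker panel took 0.139% (0.105 to 0.171) of the UMIs of WT cardiomyocytes and 0.0659% (0.0458 to 0.0931) in Taz-KO. Their shares in WT and Taz-KO were 0.147% and 0.138% in fibroblasts, 0.0728% and 0.0605% in endothelial cells, and 0.0626% and 0.0400% in macrophages. Whether the UMIs of this panel in cardiomyocytes came from adipocytes was not tested. The part of adipocyte RNA in the fall of Slc36a2 was not tested. Slc6a20b also rose, with overlap between mice.

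Of 23 transporters of mitochondria, lysosomes and vesicles in the files, 20 were tested in cardiomyocytes, and 2 rose and 1 fell, with a median log2 fold change of -0.14. These counts are near the 8.53% of all genes called higher and the 6.62% called lower. Sfxn1, the mitochondrial serine transporter, had a log2 fold change of 0.95 ± 0.17 (adjusted p = 0.00390, edgeR) and a level of 35.1 CPM in Taz-KO against 16.9 CPM in WT. Slc38a7, a lysosomal glutamine and asparagine transporter, had a log2 fold change of 0.62 ± 0.15 (adjusted p = 0.0186). Slc6a17 fell, with overlap between mice. In fibroblasts, endothelial cells and macrophages 0 transporters of both lists passed with edgeR. At an unadjusted p of 0.05 there were 7, 6 and 3 of the plasma membrane list and 1, 1 and 0 of the intracellular list, and DESeq2 called 1, in endothelial cells.

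Of 20 other genes of the integrated stress response, 9 rose and 0 fell in cardiomyocytes with edgeR (1 lower at an unadjusted p of 0.05 and 0 with DESeq2), beside 8.53% of all genes called higher, with a median log2 fold change of 0.68. Asns, asparagine synthetase, had the largest log2 fold change of these, 5.74 ± 0.45, from 0.689 CPM (0.140 to 1.09) in WT to 40.5 CPM (28.8 to 52.7) in Taz-KO (adjusted p = 3.08e-05, edgeR). Trib3, a pseudokinase that ATF4 induces, had 5.54 ± 0.30, from 1.74 to 88.3 CPM. Chac1, which degrades glutathione, had 3.99 ± 0.43, and Sesn2, a leucine sensor, had 3.48 ± 0.20. The transcriptional regulators Nupr1, Cebpg, Atf5 and Ddit3 had log2 fold changes of 2.37, 2.10, 1.90 and 1.27. Ppp1r15a was the other gene that rose. Atf4 itself did not pass, at 35.6 CPM in WT and 58.3 CPM in Taz-KO with overlap and a log2 fold change of 0.56 ± 0.24 (adjusted p = 0.153). These genes were listed from textbook knowledge, with earlier results of these data known.

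Outside cardiomyocytes 3 of the 20 rose in fibroblasts (Asns, Chac1 and Trib3), and 4 rose in endothelial cells and in macrophages, where Sesn2 joined them, beside 0.326%, 0.328% and 0.285% of all genes called higher in these types. With the profile of the poorest barcodes subtracted, which is no measure of free RNA, 0 of the 20 genes passed in each of the 3 types (Asns was then too low to be tested in macrophages), and 0, 6 and 0 genes of any kind were called. The log2 fold changes after subtraction were 4.79, 3.84 and 4.02 for Chac1 and 1.41, 1.87 and 2.82 for Trib3 in fibroblasts, endothelial cells and macrophages, in place of 4.56, 3.95 and 4.05 for Chac1 and 1.81, 2.07 and 2.82 for Trib3. Asns had a mean of 30.8 CPM in Taz-KO fibroblasts, 41.9 CPM in endothelial cells and 37.8 CPM in macrophages, with Taz-KO mice as low as 5.48, 10.3 and 3.67 CPM, against 2.15, 4.15 and 1.49 CPM in WT. The cardiomyocyte panel shares and the levels in the poorest barcodes given above apply to these genes too, and the part of free RNA was not tested.

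Since Slc7a11 is also a known target of NRF2, the transcription factor that responds to oxidative stress, 15 genes of that response were examined, and in cardiomyocytes 2 rose and 1 fell, with a median log2 fold change of 0.24. As for the intracellular transporters, this is near the 8.53% of all genes called higher and the 6.62% called lower. Srxn1, sulfiredoxin, rose with a log2 fold change of 1.27 ± 0.24 (adjusted p = 0.00452, edgeR), and Nfe2l2, which encodes NRF2 itself and is not an enzyme of the response, with 0.97 ± 0.22 (adjusted p = 0.0141). Nqo1, a quinone reductase, went from 29.8 to 17.0 CPM, with a log2 fold change of -0.91 ± 0.17 (adjusted p = 0.00510). In fibroblasts, endothelial cells and macrophages 0 of the 15 passed with edgeR, at an unadjusted p of 0.05 also 0, and with DESeq2 0.

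The genes whose levels were most like those of each member were found by Pearson's r of log2(CPM + 1) over 32 sums, those of 8 mice in 4 cell types, among 16252 genes. The sums of 1 mouse share a library, and r is a description. Slc7a5 was most like Sesn2 (r = 0.96) and Tfcp2l1 (0.95), Slc3a2 like Nars (0.95) and Eif5 (0.94), and Slc1a4 like Iars (0.95) and Cars (0.94). Nars, Iars and Cars encode the tRNA synthetases for asparagine, isoleucine and cysteine. Slc7a3 was most like Mthfd2 (0.97), an enzyme of mitochondrial folate metabolism, and Ostn (0.96), and Slc6a9 like Snhg3 (0.92) and Aldh18a1 (0.92), the enzyme that begins proline synthesis. Slc7a11, high in fibroblasts as well, was most like Fgf7 (0.89) and Sept6 (0.86). The 3 members that overlapped between genotypes had other neighbours, as Slc38a3 was most like Rbm24 (0.98) and Smyd1 (0.97), both known from striated muscle, Slc1a5 like Gli3 (0.97) and Aldh1a1 (0.97), and Slc38a2 like 2310040G24Rik (0.92) and Frmd5 (0.91). Slc7a1 was most like Gm42531 (0.89) and 1700034J05Rik (0.88).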

How the data were processed

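The counts were deposited as whole numbers of UMIs, for each gene in the barcodes that Cell Ranger 6.0.1 called as cells, with reads in introns counted against mm10. The authors' correction for ambient RNA, doublet removal and test of single nuclei (MAST) came after these counts and were not used here. Barcodes under 800 UMIs or 250 genes and mitochondrial genes were dropped, and 16231 scored doublets were removed. Variable genes (2000) and 15 components, corrected for the mouse by Harmony's algorithm written anew in Python 3.11.15, were clustered by Leiden (python-igraph 0.11.9) at a resolution of 0.9 into 39 clusters. Clusters were named from listed markers, so that each name stands for a nucleus like that type, and the naming rule was revised 2 times after scores were seen. Smooth muscle cells and lymphocytes had no cluster that could be named.

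Sums of counts were made for each cell type in each mouse, given at least 10 nuclei in at least 3 mice per genotype, and tested across all genes with edgeR 4.0.16 in R 4.3.3 (TMM, filterByExpr, quasi-likelihood F test, Benjamini-Hochberg). Genotype was the sole term, and p-values weigh the difference between genotypes against the spread between mice. Each mouse had its own library, so this spread includes that between libraries. DESeq2 1.42.0 was an alternative, beside other scalings, filters, names and left-out mice. The fits were tested on simulated data. The members and gene lists were chosen with earlier results of these data known. Named genes are the members, Taz, the genes of each list past an adjusted p of 0.05 in cardiomyocytes without overlap between mice (at most 8 per direction), and the 2 genes most like each member. Atf4, and genes called with overlap or found by the promoter search, were named after their values were seen. Positions are from GENCODE on GRCm38, the build of mm10, and promoters from RefSeq.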

Additional observations from a re-analysis of the deposited data

Results flagged for a closer look

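In 80 groups of 4 mice (10 members, 4 cell types, 2 genotypes), 8 had a mouse that stood far from the other 3, where chance gives about 1 in 20. In cardiomyocytes these were Slc7a5 in Taz-KO replicate 4910 (26.5 CPM, lowest), Slc7a3 in Taz-KO replicate 5300 (10.1 CPM, highest) and Slc3a2 in WT replicate 5356 (11.0 CPM, lowest). In endothelial cells they were Slc7a1 in Taz-KO replicate 4910 (46.6 CPM, lowest) and Slc6a9 in Taz-KO replicate 5301 (1.03 CPM, lowest). Taz-KO endothelial sums went down to 967367 UMIs, so this Slc6a9 value rests on few UMIs. In macrophages they were Slc7a1 in WT replicate 4686 (42.5 CPM, highest), Slc3a2 in WT replicate 5356 (24.0 CPM, lowest) and Slc6a9 in WT replicate 5356 (2.12 CPM, lowest). WT replicate 5356 and Taz-KO replicate 4910 thus gave 5 of the 8.

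The poorest 10% of each library's barcodes by UMIs are no cell type, and their levels were outside the tests between genotypes, although their profile was subtracted in an alternative. In 6 of the 8 libraries all of them passed the filters on UMIs and genes. As sets they held 6 members at higher levels in every Taz-KO library than in any WT library. The share of all genes that did so is not given here, and the members were chosen with this contrast known, so nothing is read from this count. The gap between lowest Taz-KO and highest WT library was narrow for Slc38a2 (248 and 245 CPM) and Slc38a3 (23.3 and 21.9 CPM). The Taz-KO means were 25.2 CPM for Slc7a11, 23.6 CPM for Slc7a5, 73.0 CPM for Slc7a1, 318 CPM for Slc38a2, 32.9 CPM for Slc38a3 and 19.7 CPM for Slc1a4. The WT means were 10.0, 3.20, 44.4, 200, 19.7 and 5.33 CPM, in the same order.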

How the results depend on the processing

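Cardiomyocytes had 2808 genes past an adjusted p of 0.05, which kept within 1.5 times under every alternative run (1892 to 2658 with a mouse left out). Members called in the main fit of the 4 cell types kept their direction in the alternatives. Nothing is read from this, since the members were chosen with this contrast known. Of the called genes 56.3% were higher in Taz-KO, and 68.2% when only library totals were used, which moved the median of all genes from -0.01 to 0.11 on the log2 scale. Subtraction of a share of the poorest barcodes' profile moved the log2 fold change in cardiomyocytes to 6.19 for Slc7a11, 5.98 for Slc7a5, 5.37 for Slc6a9 and 5.34 for Slc1a4. Without cluster 21, chosen after the data were seen, it was 4.88 for Slc7a11, and 2865 genes were called. Counts of called genes in the other types depended on the setting. In fibroblasts 75 became 361 with DESeq2, 117 without Taz-KO replicates 4685 and 5301, 0 with that profile subtracted, and 8 to 166 with a mouse left out. In endothelial cells 67 became 270 with DESeq2, 115 without the filter on low counts, 114 without Taz-KO replicates 4685 and 5301, 6 with that profile subtracted, 110 by the marker pair alone, and 11 to 158 with a mouse left out. In macrophages 73 became 386 with DESeq2, 154 without the filter, 185 without both shallow libraries, 0 with that profile subtracted, 386 by the marker pair alone, and 4 to 333 with a mouse left out. The highest count with a mouse left out was that without Taz-KO replicate 5301 in each of these types. Member tests passed in the 4 further types went from 0 to 6 without the filter, 4 without both shallow libraries, and 0 to 4 with a mouse left out. The 7 other transporters called in cardiomyocytes became 4 without both shallow libraries (5 to 8 with a mouse left out). Shares of Taz-KO cardiomyocyte nuclei without matched depth were 30.4% for Slc7a11, 33.8% for Slc7a5, 6.70% for Slc7a3, 61.6% for Slc7a1, 44.9% for Slc3a2, 86.6% for Slc38a2, 45.2% for Slc38a3, 15.3% for Slc6a9, 30.1% for Slc1a4 and 15.3% for Slc1a5. The causes were not tested. No paired analysis was run. Replicate numbers are mouse numbers, so they cannot show whether mice were paired. Taz-KO replicate 4685 and WT replicate 4686 had neighbouring numbers, as did WT replicate 4909 and Taz-KO replicate 4910. Taz-KO replicates 5300 and 5301 were also neighbours, as were WT replicates 5355 and 5356. Whether neighbours shared a litter or a batch is not given in the sources used here, and its effect was not tested.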
